A study of Homo sapiens with 24 samples.

Results

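Untreated OE33 cells with a cGAS knockout (cGAS KO) were compared with untreated OE33 cells of a Cas9 control. The libraries were chosen by their labels, as those of OE33 in DMSO with the genotype cGAS KO or Cas9 control, which gave 6 of the 24 libraries of the study, 3 for each genotype. Both OE33 and SK-GT-4, the other line of the study, are established human lines of esophageal adenocarcinoma. In each line, Cas9 and cGAS KO cells were kept for 48 hours in DMSO or in 500 nM reversine, an inhibitor of the mitotic kinase MPS1 (MPS1i), before poly(A)-selected RNA was sequenced. Each of the 8 groups had 3 libraries, and replicates 1, 2 and 3 were also batches 1, 2 and 3. Knockouts were made with lentiviral vectors that carry Cas9 and a guide RNA. The study describes these cells as clones, and whether the 3 libraries of a genotype came from 1 clone is not given in the sources used here, so each genotype was read as 1 clone grown in 3 batches. A difference between the clones that has another source and a difference that follows from the loss of cGAS cannot be told apart here. With the batch as a block, p-values rest on the spread left among the 12 libraries of a line after group and batch. That spread is among repeats of the same cells and not among clones. Values of 3 libraries are given in the order of replicates 1, 2 and 3 throughout.

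cGAS is an enzyme that binds double-stranded DNA in the cytosol, such as the DNA of ruptured micronuclei, and makes the cyclic dinucleotide cGAMP. cGAMP activates the membrane protein STING, which engages the kinase TBK1, the transcription factor IRF3 and NF-kB. Known targets of the pathway include type I interferon, interferon-stimulated genes and inflammatory chemokines such as CXCL8.

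The guide RNA that the study lists for CGAS is shown because it places the cut in the gene that defines the groups. It is written 5′ to 3′ with the adjacent PAM, which is not part of the guide, in capitals.

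CGAS guide and PAM: atccctccgtacgagaatggGGG

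This sequence had 1 exact match with a PAM in GRCh38, at chr6:73451711-73451733 on the + strand, whereas CGAS is transcribed from the - strand. The site lies in exon 1 of 5, in coding sequence, and 454 of the 1566 coding bases (29.0%) come before the cut. The counts cover the whole gene and not the edited site, so they read the knockout only as far as the edited transcript is lost.

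Total counts were between 15561268 and 25284177 in the 12 OE33 libraries, and no 2 libraries agreed within sampling noise. Epithelial markers were high in every library. In DMSO, EPCAM, CDH1, KRT7, KRT8, KRT18 and KRT19 summed to between 20376 and 23230 CPM in Cas9 cells. The sum in cGAS KO cells was between 20632 and 25193 CPM. CPM are counts scaled to a common library size, for these sums by the library total alone. Leukocyte markers summed to between 2.25 and 4.81 CPM in Cas9 and between 4.76 and 7.57 CPM in cGAS KO cells, with 6 of 10 markers at no more than 3 counts in any library and PTPRC at 0. Fibroblast markers summed to between 1.65 and 2.66 CPM in Cas9 and between 1.94 and 6.05 CPM in cGAS KO cells, with DCN and PDGFRA at 0. Endothelial markers did not exceed 0.529 CPM in sum in DMSO, with PECAM1, CDH5 and KDR at 0. The share of counts from mitochondrial genes ran from 1.34% to 8.94% and was highest in batch 3. Genes at 20 CPM or more in SK-GT-4 and at 0.2 CPM or less in OE33 were 28 in number. The limit in OE33 left out cGAS KO replicate 2 in DMSO, where these genes summed to 0.625 CPM. In the other OE33 libraries they summed to between 0.261 and 0.722 CPM, and there the low sums followed from the choice. A single library stood apart from its group. cGAS KO replicate 2 in DMSO had an intermediate level of CGAS, so results are given with it and without it.

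CGAS itself was lower in the cGAS KO libraries. It had 34.6, 29.7 and 30.8 CPM in Cas9 cells and 2.23, 15.3 and 2.27 CPM in cGAS KO cells. These and later CPM of single genes were also scaled with trimmed-mean factors. All cGAS KO libraries were below all Cas9 libraries, and replicate 2 lay about midway between the groups. On the log2 scale the difference was -2.50 (standard error 0.45, adjusted p = 0.00378, from the quasi-likelihood test of edgeR, adjusted after Benjamini and Hochberg over all genes tested). Without replicate 2 it was -3.85 (standard error 0.20, adjusted p = 3.6e-10, same test in edgeR). The same clones in MPS1i had 40.7, 29.1 and 28.6 CPM against 2.32, 2.72 and 2.44 CPM, so the cGAS KO culture of batch 2 was low in CGAS there. In SK-GT-4 in DMSO, the log2 fold change of CGAS was -2.01 (standard error 0.31, adjusted p = 0.00403 in edgeR). The OE33 call was lost without batch 3 (adjusted p = 0.242 in edgeR), without batch 1 (0.049), without Cas9 replicate 1 (0.0144) or 3 (0.0392), without cGAS KO replicate 3 (0.0248), and when the batch was not a block (0.126). Of the other genes within 1 Mb of CGAS, none passed an adjusted p of 0.01. The nearest to it was KHDC1, a KH domain gene, at 0.90 (standard error 0.19, adjusted p = 0.0106 in edgeR). DDX43, a helicase gene, overlaps the end of CGAS on the other strand, where reads cannot be told apart unless the counting used strand. It was at 0.59 (adjusted p = 0.0812) with all libraries and at 0.82 (adjusted p = 0.0027) without replicate 2, both in edgeR.

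To find out what the library cGAS KO replicate 2 held, 42 genes were taken that differed at least 4-fold between the clones in MPS1i, at an adjusted p of 0.01 and at least 5 CPM in the higher clone. Each DMSO library was then placed on a linear CPM scale from 0, the cGAS KO mean in MPS1i, to 1, the Cas9 mean in MPS1i. The median place was 1.01, 1.02 and 1.00 in the Cas9 libraries. It was 0.0189 and -0.0306 in cGAS KO replicates 1 and 3, and 0.752 in replicate 2, with quartiles of 0.424 and 0.987. In replicate 2 the 12 genes that were higher in Cas9 cells had a median place of 0.269, and the 30 genes that were higher in cGAS KO cells had one of 0.850, while CGAS was at 0.421. With the MPS1i libraries of the same batch as the ends of the scale, a choice made after the data were seen, these medians were 0.320 and 0.742.

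The 42 genes of that library were spread along the scale. Against the same batch, 14 were at 0.25 or less, 17 were at 0.75 or more, and 11 were between. Of the 14, IFITM1, IFI6 and P3H3 were past the cGAS KO end of that scale, at -5.20, -1.24 and -0.42. On the first scale they were nearer the Cas9 end, at 0.805, 0.870 and 0.781. In batch 2 in MPS1i, IFITM1 had 0 CPM in Cas9 and 0.623 CPM in cGAS KO cells, so its scale lay near the floor. Against the same batch, replicate 1 had 35, 0 and 7 genes in these classes and replicate 3 had 37, 0 and 5. On the first scale, replicate 2 had 9, 21 and 12. FPR3, a formyl peptide receptor gene, had 3 counts in replicate 2, against 120 expected at the level of Cas9 replicate 2, which is 2.5% of that level (95% exact Poisson interval of the count, 0.515 to 7.30%). ZNF704, a zinc finger gene, had 1 count, or 1.19% of the Cas9 level (0.0300 to 6.61%). CGAS was at 51.4% of the Cas9 level (46.0 to 57.3%) and FAM83A, a gene of epidermal growth factor receptor signaling, at 36.8% (35.5 to 38.2%). The intervals cover counting error only. KRT13, a squamous keratin, was at 120% of the Cas9 level, while cGAS KO replicates 1 and 3 had 1.44 and 4.53 CPM of it against 30.5 CPM in replicate 2. KRT13 varied within the Cas9 group too, with 8.95 CPM in replicate 1, 25.4 CPM in replicate 2 and 30.3 CPM in replicate 3. These genes were chosen after their values were seen. What set this library apart was not tested.

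Over all 20426 genes tested, 205 (1.00%) were higher and 95 (0.465%) were lower in cGAS KO cells at an adjusted p of 0.01 (edgeR's quasi-likelihood test with the batch as a block). At an unadjusted p under 0.05, 1895 genes were higher and 1674 lower. Without cGAS KO replicate 2, 588 of 20157 genes (2.92%) were higher and 374 (1.86%) were lower. The biological coefficient of variation fell with that library left out, from 14.97% to 12.50%. Of the 300 genes called with all libraries, 290 were called in the same direction without replicate 2, of which 201 were higher and 89 lower. Of the 300, 177 differed at least 2-fold, and 296 were protein coding. The groups did not overlap for 240 of them, while 12.5% of all tested genes had groups that did not overlap. Of the 962 genes called without replicate 2, 681 had the same sign in replicate 2 against the Cas9 library of its batch, and the median share of the log2 difference found there was 0.293. The counts moved with single libraries and with the batches. Without Cas9 replicate 1, 2 or 3 in turn, 86, 92 and 38 genes were higher and 29, 39 and 26 lower. Without cGAS KO replicate 1, 190 were higher and 88 lower, and without its replicate 3 there were 88 and 40. Without batch 1, 73 were higher and 22 lower, without batch 3, 6 and 5, and without the batch as a block, 9 and 6. IFI27, PUDP, P3H3, MMP1, ZNF704, FPR3, NEO1, PLAGL1 and SLC37A2 passed in each of these fits that left out a library or batch. Without the batch as a block, P3H3 (adjusted p = 0.312 in edgeR), SLC37A2 (0.186), MMP1 (0.0396), NEO1 (0.0327) and FPR3 (0.0259) were lost. With the 6 DMSO libraries alone and no block, ZNF704 (adjusted p = 0.0111 in edgeR) and PLAGL1 (0.0164) were lost as well.

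Outside the runs of neighboring genes described further on, the genes with the largest increase were led by DAPK1, a calmodulin-regulated kinase of cell death. DAPK1 had 0, 0.201 and 0.0515 CPM in Cas9 cells and 8.20, 7.40 and 7.98 CPM in cGAS KO cells. It differed on the log2 scale by 6.45 (standard error 0.46, adjusted p = 5.4e-07 in edgeR), and the 3 cGAS KO libraries, replicate 2 included, lay close together. PUDP, a pseudouridine phosphatase gene on chromosome X, was similar, with 0.407, 0.604 and 0.618 CPM against 11.1, 9.12 and 8.47 CPM, a log2 fold change of 4.13 (standard error 0.27, adjusted p = 2.6e-07 in edgeR). In SK-GT-4, DAPK1 was at 0.25 and PUDP at -0.09 (adjusted p of 0.80 and 0.87).

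Other genes were high in cGAS KO replicates 1 and 3 but near the Cas9 level in replicate 2. MAOA, the monoamine oxidase A gene, had 1.37, 0.453 and 0.360 CPM in Cas9 cells and 11.9, 0.884 and 8.74 CPM in cGAS KO cells. DCLK1, a microtubule-associated kinase gene, had 1.12, 0.805 and 0.515 CPM against 21.9, 1.44 and 4.15 CPM. ANKRD1, an ankyrin repeat gene that responds to YAP, had 7.78, 1.56 and 4.89 CPM against 40.9, 4.28 and 79.7 CPM. In MAOA and ANKRD1 the groups overlapped through replicate 2. They differed on the log2 scale by 3.17 and 2.88, and 3.78 and 3.41 without that library. DCLK1 was at 3.12 and at 3.82 without it.

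MMP1, the interstitial collagenase, had 31.4, 26.8 and 85.9 CPM in Cas9 cells and 392, 184 and 708 CPM in cGAS KO cells. It differed on the log2 scale by 3.18 (standard error 0.21, adjusted p = 2.6e-07 in edgeR), and the groups did not overlap. TNS4, a tensin of focal adhesions, was at 3.54, P3H3, a collagen prolyl hydroxylase, at 3.25, ONECUT3, a homeobox transcription factor, at 3.14, PADI2, a peptidylarginine deiminase, at 2.53, and DRD1, a dopamine receptor, at 2.34. P3H3 differed strongly between batches, with 0.508, 0.252 and 2.83 CPM in Cas9 cells and 7.07, 3.30 and 19.5 CPM in cGAS KO cells. Among the 15 genes with the largest increase, IFI27, IFITM1, IFI6 and EPSTI1 are interferon-stimulated and are given with their list.

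Among the genes that were lower, ZNF704 and FPR3 were close to absent in all cGAS KO libraries. ZNF704 had 6.61, 3.93 and 4.53 CPM in Cas9 cells and 0, 0.0465 and 0.216 CPM in cGAS KO cells, a log2 fold change of -5.94 (standard error 0.56, adjusted p = 1.4e-05 in edgeR). FPR3 had 8.59, 5.59 and 11.02 CPM against 0.117, 0.140 and 0.755 CPM, a log2 fold change of -4.81 (standard error 0.49, adjusted p = 2.7e-05 in edgeR). Both were as low in replicate 2 as in the other cGAS KO libraries. PLAGL1, an imprinted zinc finger transcription factor, had 18.4, 21.0 and 15.6 CPM against 4.64, 4.70 and 5.23 CPM, and it differed on the log2 scale by -1.92 (standard error 0.21, adjusted p = 4.8e-05 in edgeR). NEO1, the netrin and RGM receptor neogenin, had 21.4, 27.9 and 40.8 CPM against 5.50, 6.28 and 10.6 CPM.

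The transporter SLC2A3, which carries glucose, had 22.6, 28.0 and 41.8 CPM in Cas9 cells and 4.80, 1.49 and 19.8 CPM in cGAS KO cells, a log2 fold change of -2.31 (adjusted p = 0.00323 in edgeR). CA9, a carbonic anhydrase, had 3.86, 8.36 and 13.4 CPM against 0, 0.931 and 2.43 CPM. DDIT4, an inhibitor of mTORC1 signaling, had 62.3, 89.7 and 69.8 CPM against 7.81, 55.4 and 14.9 CPM, so replicate 2 was again near the Cas9 group. It differed on the log2 scale by -1.78, and -2.64 without that library. SERPINA1, which encodes alpha-1 antitrypsin, was at -1.92 with groups that overlapped, with 15.3, 5.99 and 16.9 CPM against 2.58, 1.35 and 7.61 CPM. The other genes of this set were SSBP2, a single-stranded DNA binding protein (-2.36), ST6GAL1, a sialyltransferase (-2.01), FREM2, an extracellular matrix protein (-1.93), LCP1, an actin-bundling plastin (-1.83), ACSM3, an acyl-CoA synthetase (-1.76), and SLC37A2, a sugar phosphate transporter (-1.71).

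**Figure D1:**
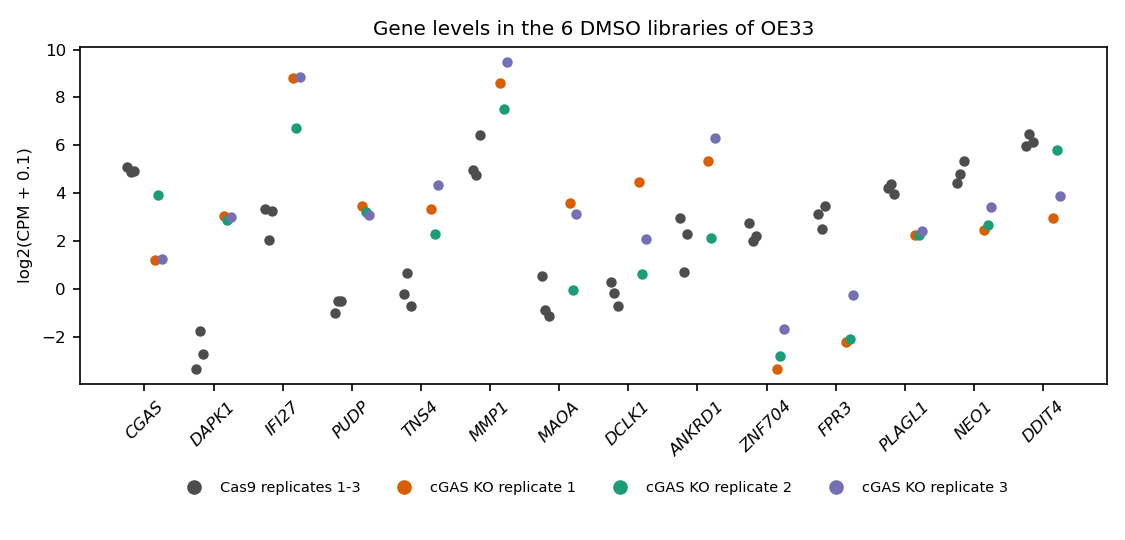
Levels of 14 genes in the 6 DMSO libraries of OE33, as log2(CPM + 0.1), with a point for each library. Cas9 libraries are gray, and cGAS KO replicates 1, 2 and 3 are orange, green and purple. Replicate 2 lies with the other cGAS KO libraries for DAPK1, PUDP, ZNF704, FPR3, PLAGL1 and NEO1, and near the Cas9 libraries for MAOA and DDIT4.

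Interferon-stimulated genes tended to higher levels in cGAS KO cells. Of 48 genes listed and tested, 9 (18.8%) were higher and 0 were lower, beside 1.00% and 0.465% of all genes. The median log2 fold change was 0.65, against -0.01 over all genes, and 46 of the 48 were above 0. Without cGAS KO replicate 2, 19 were higher, 0 lower, and the median was 0.76. IFI27, a mitochondrial membrane protein gene and one of the most inducible of the class, had 10.2, 4.03 and 9.47 CPM in Cas9 cells and 447, 104 and 465 CPM in cGAS KO cells. It differed on the log2 scale by 5.30 (standard error 0.21, adjusted p = 2.8e-10 in edgeR), and even its lowest cGAS KO library lay far above the Cas9 libraries. In every batch the cGAS KO library was higher.

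The size of the difference in other members depended on the batch. IFI6, which acts on flavivirus replication in the endoplasmic reticulum, had 16.5, 5.69 and 20.8 CPM in Cas9 cells and 62.3, 24.4 and 288 CPM in cGAS KO cells, with a log2 fold change of 2.62 (standard error 0.38, adjusted p = 0.000798 in edgeR). IFIT1, a sensor of viral RNA caps, had 10.9, 4.33 and 7.83 CPM against 22.6, 18.7 and 88.7 CPM, with a log2 fold change of 2.19. MX1, an antiviral dynamin-like GTPase, had 17.3, 8.46 and 15.8 CPM against 33.2, 16.0 and 136 CPM, with a log2 fold change of 1.74 and groups that overlapped. Replicate 3 of cGAS KO was the highest library for each of these, and batch 2 had the lowest level within each genotype.

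IFITM1, an inhibitor of viral entry, had 0.661, 0.151 and 1.03 CPM against 3.04, 3.86 and 49.2 CPM, and it differed on the log2 scale by 4.61 (standard error 0.66, adjusted p = 0.00076 in edgeR). It shares sequence with IFITM2 and IFITM3, between which reads may be split. TRIM22, an antiviral ubiquitin ligase, was at 2.90, EPSTI1, an epithelial stromal interaction gene, at 2.41, CMPK2, a mitochondrial nucleotide kinase, at 1.26, and USP18, the protease that removes ISG15, at 1.11. ISG15 itself was at 0.81 (adjusted p = 0.0119 in edgeR) and passed without replicate 2, at 0.93.

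By library, the median log2 difference of the 48 genes from the Cas9 DMSO mean was 0.26, -0.26 and 0.05 in Cas9 cells and 0.55, 0.29 and 1.40 in cGAS KO cells. The groups did not overlap, but the lowest cGAS KO library was at 0.29 and the highest Cas9 library at 0.26. In MPS1i the medians were 0.41, 0.14 and 0.37 in Cas9 cells and 0.55, 0.10 and 1.16 in cGAS KO cells, so the order in batch 2 was turned there. In that contrast 6 of the 48 were higher at an adjusted p of 0.01 and 0 lower, with a median of 0.39, beside 1.88% and 0.955% of all genes. In SK-GT-4 in DMSO, 0 were higher and 2 were lower (IFIT2, an RNA-binding protein, and OASL, a ubiquitin-like antiviral protein, at -1.43 and -3.86 on the log2 scale), beside 1.10% and 0.658% of all genes there, and the median was -0.11. The OE33 count of 9 was 15 without cGAS KO replicate 1, and 1 without Cas9 replicate 3, without batch 3 or without the batch as a block. Summed leukocyte markers were also higher in cGAS KO replicate 3 than in any other DMSO library, at 7.57 CPM, and their part in the result was not tested.

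Promoters of some members that were higher are shown, since the class is known to be controlled through the interferon-stimulated response element. Each is the 250 bases before a RefSeq transcript start (GRCh38.p14), 5′ to 3′ on the strand of the gene, with matches in capitals. A match is a GAAA, any pair of bases and a further GAAA, on either strand, and matches that overlap run together.

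IFI27, chr14:94110486-94110735, + strand: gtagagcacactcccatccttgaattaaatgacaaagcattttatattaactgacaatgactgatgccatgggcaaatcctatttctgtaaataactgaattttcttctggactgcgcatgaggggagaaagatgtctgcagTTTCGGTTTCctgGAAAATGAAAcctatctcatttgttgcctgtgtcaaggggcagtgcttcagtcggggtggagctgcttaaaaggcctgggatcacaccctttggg
IFI6, chr1:27672193-27672442, - strand: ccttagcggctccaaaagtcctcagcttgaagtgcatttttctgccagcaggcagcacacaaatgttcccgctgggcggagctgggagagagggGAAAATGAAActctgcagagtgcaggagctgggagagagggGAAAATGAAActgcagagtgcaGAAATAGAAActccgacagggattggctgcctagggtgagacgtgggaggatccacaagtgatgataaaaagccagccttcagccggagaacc
IFIT1, chr10:89392373-89392622, + strand: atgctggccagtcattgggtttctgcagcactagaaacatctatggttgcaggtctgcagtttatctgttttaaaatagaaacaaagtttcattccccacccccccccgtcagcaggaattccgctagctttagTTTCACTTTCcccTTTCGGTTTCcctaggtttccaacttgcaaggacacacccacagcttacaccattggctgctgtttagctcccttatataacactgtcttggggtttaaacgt
IFITM1, chr11:313790-314039, + strand: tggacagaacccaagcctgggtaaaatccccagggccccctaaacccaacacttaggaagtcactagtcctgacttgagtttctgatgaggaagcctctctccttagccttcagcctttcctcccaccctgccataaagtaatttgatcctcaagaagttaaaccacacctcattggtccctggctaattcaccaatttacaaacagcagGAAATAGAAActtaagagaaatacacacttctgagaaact

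IFI27 and IFIT1 held 2 matches each, IFI6 held 3 and IFITM1 held 1. Other genes called higher did not all hold a match in each promoter. CMPK2 held 0 in each of its promoters, and MX1 held 1 in a single promoter and 0 in its others. Of all 35116 promoters in the table, 1061 (3.02%) held at least 1 match. Of the 50 promoters of 38 listed interferon-stimulated genes found in the table, 26 (52.0%) did. Of the 12 promoters of 7 genes called higher with all libraries, 7 did, and of the 28 promoters of listed genes not called even without replicate 2, 12 did (42.9%). The matches describe these windows and do not show binding.

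Of the cGAS-STING pathway, 17 listed genes were tested, of which 2 were higher (11.8%) and 1 lower (5.88%), beside 1.00% and 0.465% of all genes, with a median of -0.01. The lower gene was CGAS. IRF7, the transcription factor that amplifies type I interferon, had 21.6, 12.3 and 17.8 CPM in Cas9 cells and 44.4, 23.1 and 91.4 CPM in cGAS KO cells, a log2 fold change of 1.46 (standard error 0.26, adjusted p = 0.00378 in edgeR) with no overlap. SAMHD1, a dNTP hydrolase, had 65.5, 39.96 and 46.4 CPM against 91.8, 64.1 and 120 CPM, a log2 fold change of 0.86 with an overlap through batch 2. Both remained past the threshold without replicate 2. STING1, the receptor of cGAMP, was low in this line, with 3.00, 3.52 and 5.36 CPM against 1.17, 2.19 and 3.34 CPM. It was at -0.88 (standard error 0.25, adjusted p = 0.051 in edgeR). TBK1 (-0.07) and IRF3 (0.32), the kinase and the transcription factor below STING, did not pass, nor did IFI16, BANF1, ENPP1 or the subunits of RNase H2. TREX1, the exonuclease that degrades cytosolic DNA, was listed at 0 in all 6 DMSO libraries.

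Among the neutrophil-attracting ligands of CXCR1 and CXCR2, 0 of 6 tested were called. CXCL8 had 31.8, 5.64 and 26.4 CPM in Cas9 cells and 54.4, 50.4 and 77.5 CPM in cGAS KO cells, with no overlap, and missed the threshold at 1.63 (standard error 0.33, adjusted p = 0.0101 in edgeR). Without replicate 2 it passed at 1.45 (adjusted p = 0.00732 in edgeR). CXCL1 was at 1.03 (adjusted p = 0.44 in edgeR) with all libraries and -0.29 (0.71) without replicate 2, which had 35.6 CPM against 7.34 and 14.8 CPM in the other cGAS KO libraries. CXCL2 (0.38), CXCL3 (-0.10), CXCL6 (0.83) and PPBP (-0.54) did not pass. The median of the 6 was 0.61, and -0.12 without replicate 2. Of 10 other chemokines and 24 genes of the NF-kB pathway, 0 were called, with medians of -0.12 and 0.13. Of 25 cytokines and colony stimulating factors, IL18 alone was higher, with 17.3, 16.3 and 14.5 CPM against 33.3, 26.3 and 22.5 CPM (0.77, adjusted p = 0.00976 in edgeR). That was 4% of the list. Over all genes, 1.00% were higher and 0.465% lower.

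None of the 18 tested genes of MHC class I presentation was called, with a median of 0.01. Of class II, 1 of 8 was higher (12.5%) and 0 lower, beside 1.00% and 0.465% of all genes. It was CD74, the invariant chain, at 0.91 (adjusted p = 0.00439 in edgeR) with groups that overlapped between batches. The median of the 8 was -0.53, with 2 above 0, and HLA-DRB1, HLA-DMB, CIITA and HLA-DRA were under 1 CPM in every DMSO library. Without replicate 2, CD74 was higher and HLA-DMA, a chain of the peptide-loading protein of class II, was lower (-0.90). The median was then -0.81, and 2.92% of all genes were higher and 1.86% lower. In every batch CD74 was higher in cGAS KO cells, with 33.3, 8.76 and 35.8 CPM against 49.1, 17.96 and 79.7 CPM. PRAME, a cancer-testis antigen, had 2.69, 1.21 and 1.34 CPM against 6.25, 2.51 and 5.07 CPM and was at 1.38 (adjusted p = 0.00315 in edgeR), and 2 of the listed antigens could be tested.

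Genes of columnar and intestinal lineage, which mark the metaplasia from which this cancer arises, included 5 of 32 tested that were higher (15.6%) and 0 lower, beside 1.00% and 0.465% of all genes, with a median of 0.04. Without replicate 2, 7 were higher and 1 lower, beside 2.92% and 1.86% of all genes, with a median of -0.16. CEACAM6, a cell adhesion molecule, had 17.9, 40.6 and 31.4 CPM against 33.0, 100 and 74.2 CPM (1.15, standard error 0.13, adjusted p = 5.4e-05 in edgeR). It shares sequence with CEACAM5, which was at -0.41 with all libraries and at -1.85 (adjusted p = 0.000448 in edgeR) without replicate 2. FOXA3 and FOXA2, forkhead factors of endoderm, were at 2.25 and 1.33, CLDN18, the gastric claudin, at 1.85, and TSPAN8, a tetraspanin, at 3.12, all 4 at levels under 9 CPM in every library. Both FOXA3 and CEACAM6 lie in runs of neighboring genes on chromosome 19. Of all genes listed for this lineage, 4 lie in runs. TSPAN8 had 0.102, 0 and 0.824 CPM in Cas9 cells and 2.03, 0.186 and 5.93 CPM in cGAS KO cells, with an overlap through replicate 2. Without that library, ANXA10, an annexin of gastric epithelium, and GATA6, a transcription factor of endoderm, were also higher (1.33 and 0.85). Of 12 squamous lineage genes, LYPD3, a GPI-anchored surface protein, was higher (1.52), and it too lies in a run on chromosome 19. Of 19 keratins and 20 epithelial adhesion genes 0 were called. These counts stand beside 1.00% higher and 0.465% lower of all genes.

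Of 21 genes of the mesenchymal state, 2 were higher, MMP1 among them, and 0 were lower, beside 1.00% and 0.465% of all genes. AXL, a receptor tyrosine kinase, had 74.0 CPM in replicate 1, 83 CPM in replicate 2 and 109 CPM in replicate 3 of Cas9 cells against 211, 72.8 and 374 CPM and passed only without replicate 2 (1.15 and 1.62). The TGF-beta and BMP pathway showed the same dependence. With all libraries 0 of 21 were called, at a median of 0.25, and without replicate 2, 7 were higher and 0 lower, at a median of 0.35, beside 2.92% and 1.86% of all genes. The 7 were INHBB (2.46), the inhibin beta B chain, the target genes ID3 (0.98), ID2 (0.78) and SMAD7 (0.84), the ligands TGFB2 (0.88) and BMP4 (0.86), and SMAD2 (0.57), the signal transducer. Of these 21 genes, 5 lie in runs of neighboring genes.

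Among receptor tyrosine kinases and their ligands, 2 of 24 were lower (8.33%) and 0 higher, beside 0.465% and 1.00% of all genes. Without replicate 2, 2 were lower and 3 higher, beside 1.86% and 2.92% of all genes. In MPS1i 1 was lower and 4 higher, beside 0.955% and 1.88%, so the balance of directions turned with the libraries used. VEGFA, the vascular growth factor, had 136, 120 and 141 CPM in Cas9 cells and 71.4, 54.7 and 96.3 CPM in cGAS KO cells with no overlap (-0.87, standard error 0.15, adjusted p = 0.00337 in edgeR). FGFR3, a fibroblast growth factor receptor, was at -1.38 (adjusted p = 0.00286 in edgeR), with 7.88, 11.8 and 22.2 CPM against 2.62, 2.84 and 13.5 CPM. FGFR2 went the other way, at 1.52 (adjusted p = 0.0335) with all libraries and 2.13 (adjusted p = 5.8e-07 in edgeR) without replicate 2. Its levels were 5.84, 9.61 and 7.62 CPM in Cas9 cells and 22.9, 6.89 and 40.8 CPM in cGAS KO cells. Of 18 genes often amplified in this cancer, 2 were lower, VEGFA among them, and 0 were higher, beside 0.465% and 1.00% of all genes. Without replicate 2, 3 were lower and 2 higher (FGFR2 and GATA6), beside 1.86% and 2.92% of all genes.

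The other lists held few calls, beside 1.00% of all genes that were higher and 0.465% that were lower. Single members were higher in the Wnt pathway (DKK3, a secreted modulator, 3.32, of 29 tested), the p53 targets (CDKN1A, the cell cycle inhibitor p21, 0.83, of 20) and the aryl hydrocarbon receptor targets (ALDH3A1, an aldehyde dehydrogenase, 1.71, of 7). SLC2A3 was the single lower gene of 18 transporters. None was called of 30 genes of mitosis and the spindle, 30 of DNA replication, 22 of stress responses, 24 of cholesterol synthesis, 13 encoded by mitochondria and 62 cytosolic ribosomal proteins. Their medians were -0.05, -0.10, -0.09, -0.01, 0.01 and -0.23. Without replicate 2, 1 gene was lower in each of these lists but that of stress responses, which had 0, and 0 were higher. In that fit 1.86% of all genes were lower and 2.92% higher. Ribosomal protein genes varied by batch, with library medians of 0.11, -0.17 and -0.65 in cGAS KO cells and between -0.11 and 0.11 in Cas9 cells. In bulk RNA, fewer cells that express a gene and less of its RNA per cell cannot be told apart.

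Neighboring genes changed together over long stretches of some chromosomes. Genes of at least 1 CPM were put in order of chromosome and start, which gave 12201 genes, and a running median of the log2 fold change was taken over 31 genes. A run was a stretch of at least 20 window centers at or past 0.3 on one side, with at least 70% of its genes on that side. There were 17 such runs, 13 higher and 4 lower, with 962 genes (7.88%). They were found in the contrast they describe, so they carry no test here. Of the 300 called genes, 75 (25%) lay in runs, 64 higher and 11 lower, which left 141 higher and 84 lower genes outside them. In runs 7.80% of genes were called, and 1.88% of the genes used outside them. Scaling on genes outside the runs gave 219 higher and 88 lower genes over the whole table.

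**Figure D2:**
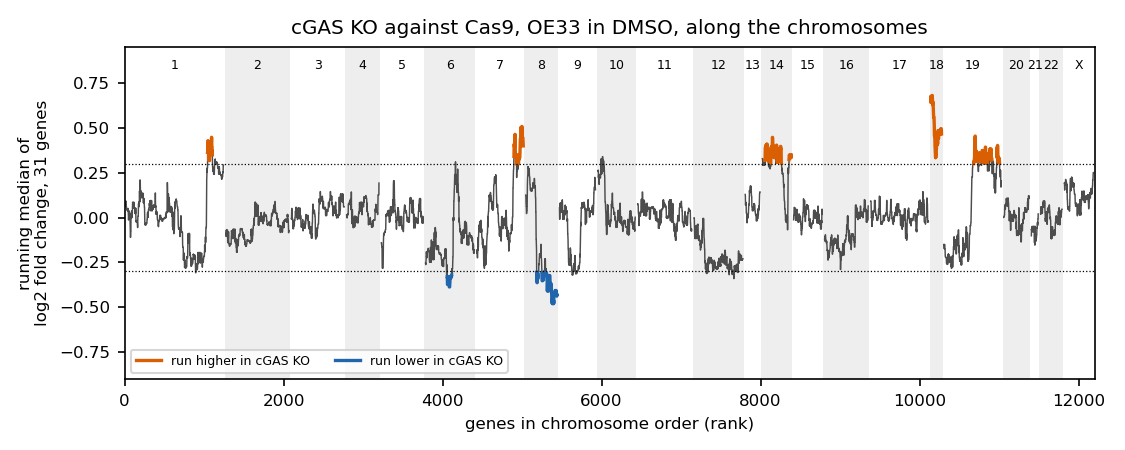
Running median over 31 genes of the log2 fold change of cGAS KO against Cas9 in OE33 in DMSO, with genes ranked along chromosomes 1 to 22 and X. Dotted lines mark 0.3 and -0.3, runs that are higher are orange and runs that are lower are blue. Chromosome 18 stands highest, and the end of chromosome 8 lowest.

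The largest run by level covered most of chromosome 18, from 5.2 to 74.5 Mb of GRCh38, with 135 genes. Of these, 129 were above 0, the median was 0.51, and 22 were called higher and 0 lower. Without replicate 2 the median was 0.65 and 55 were called. By library, the median of the run differed from the Cas9 DMSO mean by 0.01, 0.04 and -0.02 in Cas9 cells and by 0.67, 0.21 and 0.59 in cGAS KO cells. The groups did not overlap, and replicate 2 lay between them. In SK-GT-4 the same genes had a median of -0.04. Over the whole chromosome, 95.8% of 165 genes were above 0, with a median of 0.50. The genes with the smallest p were TMX3, a thioredoxin-related transmembrane protein (1.22), TUBB6, a tubulin (1.06), LIPG, a lipase (1.38), IMPA2, an inositol monophosphatase (1.12), and MPPE1, a metallophosphoesterase (1.30). TUBB6 had 43.2, 47.4 and 39.6 CPM in Cas9 cells and 100.9, 88.9 and 81.6 CPM in cGAS KO cells, so replicate 2 was as high as the others for this gene. TMX3 had 13.9, 12.2 and 24.4 CPM against 36.5, 24.9 and 56.6 CPM, and in every batch it was higher in cGAS KO cells.

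The longest lower run lay on chromosome 8 from 101.2 to 144.5 Mb, also with 135 genes. Of these, 125 were below 0, the median was -0.41, 6 were called lower and TNFRSF11B, which encodes osteoprotegerin, was called higher (1.91). Without replicate 2 the median was -0.56 and 50 genes were called lower. The library medians were -0.60, -0.18 and -0.46 in cGAS KO cells and between -0.05 and 0.07 in Cas9 cells. Again replicate 2 lay between the groups, and the median in SK-GT-4 was 0.06. FAM83A had 383, 369 and 408 CPM in Cas9 cells and 18.3, 136 and 13.2 CPM in cGAS KO cells (-3.20, standard error 0.54, adjusted p = 0.0029 in edgeR). NDRG1, a stress-responsive gene, had 390, 745 and 438 CPM against 61.2, 270 and 145 CPM (-1.88). PSCA, a GPI-anchored surface antigen, was at -2.29, SYBU, the kinesin adaptor syntabulin, at -1.16, and FZD6, a Wnt receptor, at -0.62. FAM83A, NDRG1 and PSCA differed by more than the run around them. Shorter lower runs of 20 and 33 genes lay on chromosome 8 from 52.6 to 58.7 Mb and from 85.2 to 95.1 Mb, with medians of -0.37 and -0.33, and the latter held TRIQK (-0.95), a small membrane protein gene. SDR16C5, a retinol dehydrogenase gene in the former, was higher (1.48). In SK-GT-4 the medians of these shorter runs were -0.06 and -0.25.

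The remaining lower run held 56 genes on chromosome 6 from 41.9 to 49.5 Mb, with a median of -0.33. Its called genes were PTK7, a receptor pseudokinase of Wnt signaling (-0.76), VEGFA and SLC35B2, a transporter of the sulfate donor PAPS (-0.61). Library medians were -0.26, -0.40 and -0.24 in cGAS KO cells, so replicate 2 was here the lowest. CGAS lies on the same chromosome outside this run.

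On chromosome 7, runs of 33 and 60 genes from 128.5 to 135.2 Mb and from 140.7 to 155.3 Mb had medians of 0.39 and 0.42. They were also higher in the cGAS KO cells of SK-GT-4, with medians of 0.44 and 0.59. MEST, an imprinted hydrolase gene in the first, had 23.6, 19.8 and 32.1 CPM against 83.3, 56.2 and 86.5 CPM (1.59, standard error 0.14, adjusted p = 7e-06 in edgeR). EPHB6, a kinase-dead ephrin receptor gene in the second, had 2.64, 13.7 and 5.25 CPM against 69.95, 58.1 and 88.3 CPM (3.61). ATP6V0E2, a subunit of the vacuolar proton pump, was at 1.70, CEP41, a centrosomal protein, at 0.90, and PRKAG2, a subunit of AMPK, at 0.85. Replicate 2 was close to the other cGAS KO libraries in both runs, with medians of 0.33 and 0.40.

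Chromosome 14 held 4 higher runs with medians between 0.34 and 0.40 over 206 genes, and 84.2% of its 393 genes were above 0. Called genes were LTBP2, a TGF-beta binding protein (1.78), PNMA1 (1.00), ACOT2, an acyl-CoA thioesterase with a near copy beside it (0.77), RDH11, a retinol dehydrogenase (0.54), FRMD6, a regulator of the Hippo pathway (0.95), GMFB (0.80), MOK, a kinase (0.91), ZBTB42 (0.70) and KLC1, a kinesin light chain (0.66). EGLN3, an oxygen-sensing prolyl hydroxylase gene in the first of these runs, went against it. EGLN3 had 29.3, 63.9 and 33.8 CPM in Cas9 cells and 6.83, 25.2 and 13.5 CPM in cGAS KO cells (-1.55, standard error 0.17, adjusted p = 6.1e-05 in edgeR). Within each batch it was lower in cGAS KO cells, and the groups did not overlap. In SK-GT-4 the 4 runs of chromosome 14 had medians of 0.51, 0.04, 0.04 and 0.27, in order of position.

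The long arm of chromosome 19 held 5 higher runs between 34.7 and 55.6 Mb, with 224 genes and medians between 0.31 and 0.35. FBXO27, an F-box protein gene, had 0.559, 0.252 and 0.206 CPM against 4.49, 4.33 and 2.70 CPM (3.50, standard error 0.31, adjusted p = 7e-06 in edgeR). CD22, a sialic acid binding lectin, was at 1.13, LSR, a receptor of tricellular junctions, at 0.70, PPP1R15A, a phosphatase subunit of the stress response, at 0.76, MYADM at 0.86 and TNNT1, a troponin, at 1.13. In SK-GT-4 the 5 runs of chromosome 19 had medians of -0.03, -0.05, -0.11, 0.25 and 0.28, in order of position. A run of 60 genes on chromosome 1 from 201.4 to 209.8 Mb had a median of 0.38 and held ETNK2, an ethanolamine kinase (1.33), and CSRP1 (0.63), and its median in SK-GT-4 was 0.33.

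In the MPS1i libraries, which were outside the contrast that found the runs but shared its fit and so its batch terms, the 17 runs had the same sign, and the cGAS KO libraries were separate from the Cas9 libraries in each. Each gave p = 0.1 in the two-sided exact permutation test of library medians, the smallest that 3 against 3 allows. Their medians there were between 0.31 and 0.56 for higher runs and between -0.49 and -0.20 for lower runs.

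Runs were also found in the MPS1i contrast and then read in the DMSO libraries, a step chosen after the data were seen. This gave 25 runs, 11 higher and 14 lower, with 1354 genes. The median of cGAS KO replicate 1 lay past all Cas9 libraries in the direction of the run in 25 of them, that of replicate 3 in 25 and that of replicate 2 in 20. The 5 exceptions were lower runs on chromosome 16 (1.8 to 2.5 and 19.7 to 28.6 Mb) and on the short arm of chromosome 19 (8.0 to 10.7, 11.1 to 14.1 and 17.7 to 19.3 Mb). On chromosome 16, replicate 2 was at 0.05 and 0.02, where replicates 1 and 3 were between -0.44 and -0.32. On chromosome 19, it was at 0.22, 0.09 and 0.33, where the others were between -0.54 and -0.33. In these runs of chromosome 19, replicate 2 thus lay on the other side of all Cas9 libraries. In 18 of the 25 runs replicate 2 was nearer to 0 than both other cGAS KO libraries. On chromosomes 7 and 14 it was close to them, at 0.35, 0.37, 0.38, 0.35, 0.30 and 0.40 in 6 runs, whereas on chromosome 18 it was at 0.22 and at the end of chromosome 8 at -0.19.

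**Figure D3:**
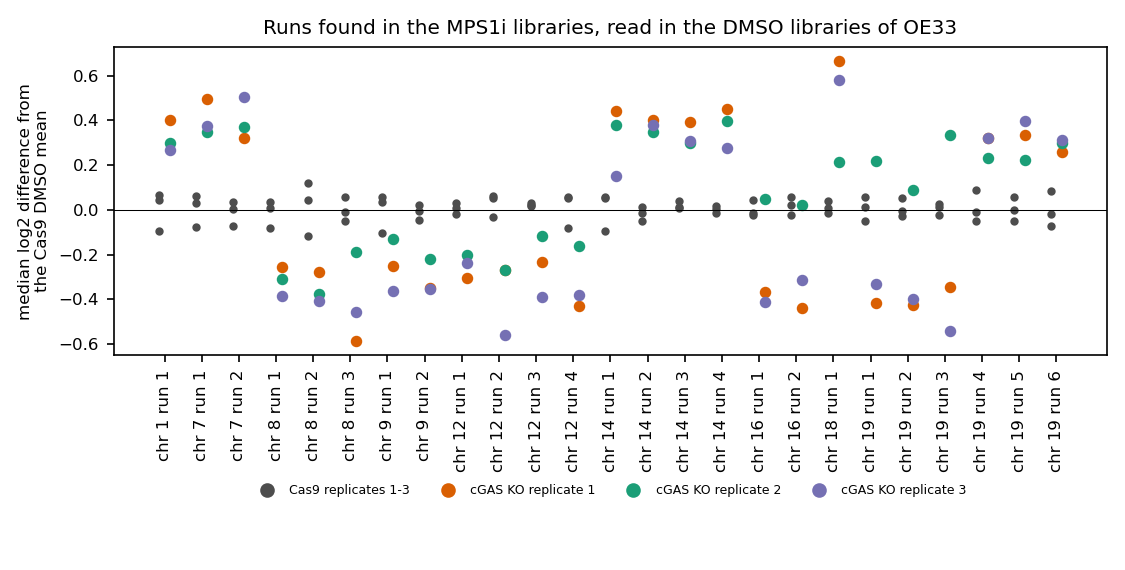
Median log2 difference from the Cas9 DMSO mean in 25 runs found in the MPS1i libraries, for each DMSO library of OE33. Cas9 libraries are gray and cGAS KO replicates 1, 2 and 3 are orange, green and purple. Replicate 2 lies with replicates 1 and 3 on chromosomes 7 and 14, between the clones on chromosome 18, among or just above the Cas9 libraries on chromosome 16, and above them in the first 3 runs of chromosome 19.

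Genes called in DMSO differed in the same direction in MPS1i. In the MPS1i libraries 385 genes (1.88%) were higher and 195 (0.955%) lower. Of the 300 genes called in DMSO, 300 had the same sign there, 230 (76.7%) were called in the same direction and 0 in the opposite one. Both contrasts used the same clones and came from the same fit with its batch terms, so this does not repeat the knockout. Of the 962 genes called without replicate 2, 406 (42.2%) were called in the same direction in the MPS1i contrast of the fit with all libraries. With replicate 2 left out of that fit as well, the number was 729 (75.8%). A test of the difference between the effects in DMSO and in MPS1i called 0 of 20426 genes at an adjusted p of 0.01 or of 0.05 (edgeR's quasi-likelihood test), with 383 at an unadjusted p under 0.05. The lack of calls does not show that the effects were equal. For CGAS, which was not called, the effect in DMSO minus that in MPS1i was 1.265 (standard error 0.63).

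In SK-GT-4, another line with its own cGAS KO and Cas9 cells, 250 of 22782 genes (1.10%) were higher and 150 (0.658%) were lower in DMSO. Called in the same direction in both lines were 22 genes, 17 higher and 5 lower, which is 7.33% of the OE33 calls and 5.50% of those of SK-GT-4. They included the targeted gene. With the OE33 value first, MMP1 was at 3.18 and 2.73, EPHB6 at 3.61 and 3.76, ANKRD1 at 2.88 and 1.91, RNASE1, a secreted ribonuclease, at 3.17 and 4.58, CEACAM6 at 1.15 and 4.72, TSPAN1, a tetraspanin, at 0.87 and 3.67, and MELTF, melanotransferrin, at 0.80 and 2.40. Lower in both were PLAGL1 at -1.92 and -8.07, GXYLT2, a xylosyltransferase that acts on Notch, at -2.87 and -3.59, and ARRDC3, an arrestin family member, at -0.96 and -1.66. PLAGL1 had 0.0595, 0 and 0 CPM in the cGAS KO cells of SK-GT-4 in DMSO, so its fold there rests on levels near the floor. RNASE1 did not exceed 0.203 CPM in the Cas9 DMSO libraries of either line, so its folds do too. GYG2, a glycogenin, FAM83A and TMPRSS4, a membrane serine protease, were called in opposite directions, with OE33 at 2.64, -3.20 and -0.87 and SK-GT-4 at -2.18, 3.19 and 7.96. Without cGAS KO replicate 2, 36 calls were shared. The difference of the knockout effect between lines passed an adjusted p of 0.01 for 402 of 24061 genes in edgeR.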

How the data were processed

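RNA was measured in 24 libraries, of which the 12 of OE33 entered the fit and 6 form the comparison. RNA had been selected by poly(A) and sequenced from both ends. The authors used HISAT2 (2.0.5) as the aligner, GRCh38 as the genome and featureCounts (1.5.0) as the counter, and deposited raw counts of 58735 genes. The annotation release, the strand setting and the treatment of reads with several matches are not given in the sources used here. The members and gene lists were chosen with earlier results of these data known.

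Genes with a total of at least 5 counts and nonzero counts in at least 4 libraries were kept. Counts were fitted in edgeR (4.0.16, with R 4.3.3) with trimmed-mean scaling, a group term and the batch as a block, tested with the quasi-likelihood test and adjusted after Benjamini and Hochberg, with a call at 0.01. SE is the log2 fold change over the root of F. SK-GT-4 was fitted alone in the same way. DESeq2 (1.42.0) was an alternative. The calling steps were tested on simulated data. Depth is given by the total counts, and intervals cover counting error only.

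Deviations of libraries with the same replicate number, within the groups, correlated at 0.42, 0.34 and 0.68 over 12273 genes, so the numbers pair the libraries as batches. Genes named outside lists are the 15 protein-coding genes with the largest change each way outside runs, called with and without cGAS KO replicate 2 and at 5 CPM or more in the higher group, the 5 of smallest p in each run, and 10 shared with SK-GT-4. Genes of the opposite direction, KRT13, and those named for their place between the clones were chosen after their values were seen. Of 66 pairs of libraries, 0 held identical counts. Some members of lists and runs are not reported here by name, though they are in the counts.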

Additional observations from a re-analysis of the deposited data

Results flagged for a closer look

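CGAS, the 10 named genes called alike in both lines, the 3 called in opposite directions and the 9 interferon-stimulated genes called in OE33 were compared between lines. Of these 23 genes, 12 had a cGAS KO effect in OE33 that differed from the effect in SK-GT-4, by the interaction term in edgeR at an adjusted p of 0.01. Over all genes, 402 of 24061 did. Apart from CGAS, the genes were chosen by their calls in these same contrasts, some for opposite directions. That choice favored a difference, so the count is a description and not a test. The values are the effect in OE33 minus that in SK-GT-4, on the log2 scale. It was positive for PLAGL1 (6.17), GYG2 (4.87), EPSTI1 (4.51), IFI27 (3.84), CMPK2 (3.64), IFIT1 (3.29) and USP18 (1.97). It was negative for TMPRSS4 (-8.78), FAM83A (-6.38), CEACAM6 (-3.54), TSPAN1 (-2.77) and MELTF (-1.57). PLAGL1 was lower in the cGAS KO cells of both lines, and CEACAM6, TSPAN1 and MELTF were higher in both, so for these the lines differed in size. For PLAGL1 that size rests on levels near the floor in the cGAS KO cells of SK-GT-4. The clones of both lines are separate, and a difference between lines and a difference between clones cannot be told apart.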

How the results depend on the processing

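With all libraries, 205 genes were higher and 95 lower, CGAS was at -2.50, the lists held 30 calls, 9 of them interferon-stimulated, 22 calls were shared with SK-GT-4, 230 recurred in MPS1i and 962 genes lay in runs. Leaving out 1 library or 1 batch gave 6 to 588 higher and 5 to 374 lower genes, CGAS between -3.85 and -1.94, 2 to 74 list calls, 1 to 19 interferon-stimulated calls, 2 to 36 shared calls and 10 to 729 recurring calls, and 842 to 1457 genes in runs. The lowest counts of genes were those without batch 3 and the highest those without cGAS KO replicate 2. The cause was not tested.

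Without the replicate block, 9 genes were higher and 6 lower, CGAS was at -2.27 (adjusted p = 0.126 in edgeR), and the lists held 1 call, the interferon-stimulated genes 1, the shared calls 2 and the recurring calls 11. With the 6 DMSO libraries alone and the block, the counts were 360, 216, 63 list calls and 21 interferon-stimulated calls. With these 6 libraries and no block they were 2 and 0, with CGAS at -2.27 and 0 list, 0 interferon-stimulated and 0 shared calls.

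DESeq2 called 462 higher and 280 lower genes and 52 list members. The stricter filter of edgeR called 123 higher genes, 11 list members, 13 shared and 144 recurring calls, with CGAS at -2.51 (adjusted p = 0.0176 in edgeR). No filter gave 688, 358, 96 list, 30 interferon-stimulated, 49 shared and 755 recurring calls. An adjusted p of 0.05 gave 564, 362, 70 list, 19 interferon-stimulated, 86 shared and 683 recurring calls. Run levels of 0.2 and 0.4 gave 2553 and 223 genes. The medians of chromosome 18 as a whole and of the long chromosome 8 run kept their sign in all 18 alternatives. Precision was limited by 3 libraries per group.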

Other observations

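A list of 37 genes that respond to low oxygen was written after the low values of CA9, SLC2A3, DDIT4 and NDRG1 had been seen, so its values are a description with no test. In DMSO, 10 of the 37 were lower and 0 higher in cGAS KO cells, beside 0.465% and 1.00% of all genes, with a median log2 fold change of -0.46 and 33 below 0. The 10 were CA9, SLC2A3, DDIT4, NDRG1, VEGFA, EGLN3, ADM, a vasodilator peptide, AK4, a mitochondrial adenylate kinase, PDK1, a kinase that limits pyruvate oxidation, and MXI1, a helix-loop-helix repressor. Without cGAS KO replicate 2, 11 were lower (1.86% of all genes) and the median was -0.51. In MPS1i, 10 were lower (0.955% of all genes) at a median of -0.41, and in SK-GT-4, 1 was lower (0.658%) at a median of -0.21. By library, the median difference from the Cas9 DMSO mean was -0.18, 0.18 and -0.05 in Cas9 cells and -0.86, -0.37 and -0.35 in cGAS KO cells, and the groups did not overlap. Of the 10, NDRG1 and VEGFA lie in runs that were lower and EGLN3 in one that was higher.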
